A study of Mus musculus with 6 samples.

Results

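The lysosomal genes described here are 42 mouse genes for the enzymes, membrane proteins and proton pump of the lysosome, chosen by name as cathepsins and other proteases, glycosidases, sulfatases, lipid enzymes with their activators, membrane proteins and subunits of the vacuolar ATPase. All 42 were found, each as 1 of the 23146 transcript entries of the series, and 39 of them averaged 1 RPKM or more across the 6 libraries (RPKM scale reads by transcript length and by library size). RNA was sequenced from EML, a mouse haematopoietic progenitor line kept in stem cell factor at 200 ng/ml, to compare cells with less or more KAI1, the tetraspanin encoded by Cd82, with wild-type cells. The 4 groups were the knockdown control (wild type, 2 libraries), the KAI1 knockdown (2 libraries), the overexpression control (wild type, 1 library) and the KAI1 overexpression (1 library). Every library was labelled strain BDF1, tissue bone marrow and cell type basophil. The sources used here do not give how KAI1 was lowered or raised, nor whether a line was a clone. Knockdown-arm libraries carry replicate numbers but no mention of separate cultures, so that a p-value measures the spread between these libraries, which may be technical.

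Lysosomes are acidic organelles in which soluble hydrolases break down proteins, glycans and lipids, while membrane proteins such as LAMP1 and LAMP2 line the organelle. The vacuolar ATPase (V-ATPase) pumps protons inward: its peripheral V1 sector splits ATP and its membrane V0 sector carries the protons. The secretory granules of mast cells and basophils are lysosome-related organelles that hold lysosomal hydrolases beside the granule proteases. Many lysosomal genes carry a promoter element with the core CACGTG, to which the transcription factors TFEB, TFE3 and MITF bind, and MITF is also a lineage factor of mast cells.

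The CACGTG core was therefore looked for in promoter windows of RefSeq (GRCm38.p6, 250 bases before to 50 after a start site), which were found for 34 of the 42 genes as 39 windows. The core, which reads the same on both strands, was present in 13 of the 34 genes (38.2%) and in 8.09% of the 27025 genes with a window: Arsa, Atp6v0d1, Atp6v1a, Ctsa, Ctsd, Ctsl, Gaa, Gla, Glb1, Lamp1, Lgmn, Mcoln1 and Naglu. The longer TCACGTG, which contains CACGTG and was searched on both strands, was in 30.8% of the members' windows and in 3.77% of all 32851 windows. TCATGTG, a variant without that core, also searched on both strands, was in 20.5% and 3.77%. The stretches below are the 4 members with TCACGTG whose overexpression differences were largest, and Lamp1, added after its 4 copies of the core were seen. Each reads 5′ to 3′ on the gene's strand with CACGTG in capitals, and positions count back from the start site, with -1 the base before it.
Ctsd, chr7:142388057-142388077, minus strand, core at -245: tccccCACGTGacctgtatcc
Ctsd, chr7:142387910-142387935, minus strand, core at -98: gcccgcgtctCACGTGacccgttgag
Gla, chrX:134601217-134601242, minus strand, core at -227: agcgattgatCACGTGagcatctacg
Gla, chrX:134601184-134601209, minus strand, core at -194: agatctcggtCACGTGagcaactctc
Lgmn, chr12:102439126-102439151, minus strand, core at -49: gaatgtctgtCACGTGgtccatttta
Glb1, chr9:114401020-114401045, plus strand, core at -48: gcttctgagtCACGTGgcctacagag
Lamp1, chr8:13159090-13159160, plus strand, cores at -61, -45, -28 and -15: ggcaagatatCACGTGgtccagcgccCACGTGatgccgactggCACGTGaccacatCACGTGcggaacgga
These matches describe the letters of the windows, and no binding was measured.

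Knockdown control replicate 1 stood apart from the other 5 libraries in marker genes. The summed level of 16 mast cell and basophil markers was 78871 RPKM in knockdown control replicate 1 and 17002 in replicate 2. It was 9159 and 8068 in the knockdown libraries, 7002 in the overexpression control and 26411 in the overexpression library. Of the 16, 14 were highest in control replicate 1 (87.5%, against 29.9% of entries). The sum of 9 erythroid markers ran the other way, with 171 and 2812 RPKM in the knockdown controls, 2349 and 2677 in the knockdown, 2207 in the overexpression control and 696 with KAI1 overexpression. Hbb-bt alone was at 57.5 and 2304 RPKM in the knockdown controls. On the RPKM + 1 scale 7 of the 9 were at least 2-fold lower in control replicate 1 than in replicate 2, against 8.5% of entries. Gata1 and Epor were instead highest in control replicate 1, at 87.3 and 15.6 RPKM. The 5 markers taken to define basophils were mixed with respect to the label. Over the 6 libraries Mcpt8 lay between 116 and 3908 RPKM and Itga2b, which megakaryocytes also express, between 118 and 254, while Cd200r3 ran from 0.0997 to 54.6 RPKM and Prss34 never passed 4.20. Fcer1a was listed at 0 in knockdown control replicate 2 and KAI1 knockdown replicate 1, and reached 24.2 RPKM in control replicate 1. The sum of 10 macrophage and dendritic cell markers was 5.99 RPKM in control replicate 1 and at most 1.36 elsewhere. Cd82 measured 43.9 and 13.8 RPKM in the wild-type libraries of the knockdown arm, 7.65 and 6.91 in the knockdown, 11.9 in the overexpression control and 15.2 with KAI1 overexpression. The estimated depth ran from 9870000 reads in knockdown control replicate 2 to 25800000 in the overexpression control.

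The levels of the lysosomal genes spanned a wide range. By mean RPKM, which is relative to transcript length, Ctsd, the aspartic protease cathepsin D, and Atp6v0c, the proton-carrying ring subunit of V0, stood at the top. Atp6v1d, a stalk subunit of V1, Grn, the precursor of the granulins, Atp6v1e1, another stalk subunit, Atp6v0d1 of V0 and Lamp1 came next, in that order. At the other end, 3 cathepsins of the endocytic pathway were at or near 0: Ctsh reached 0.200 RPKM, Ctsl 0.529 and Ctss 0.165 in their highest libraries. Lgmn, the asparaginyl protease legumain, and Arsb, arylsulfatase B, were low, at 0.0581 to 2.63 and 0.0265 to 1.97 RPKM. Those 5 genes did not average 1 RPKM over the knockdown arm, so 37 members were tested there. The entry of Glb1, beta-galactosidase, carries a second symbol, Tmppe, an overlapping gene whose reads cannot be told apart from it.

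**Figure D1:**
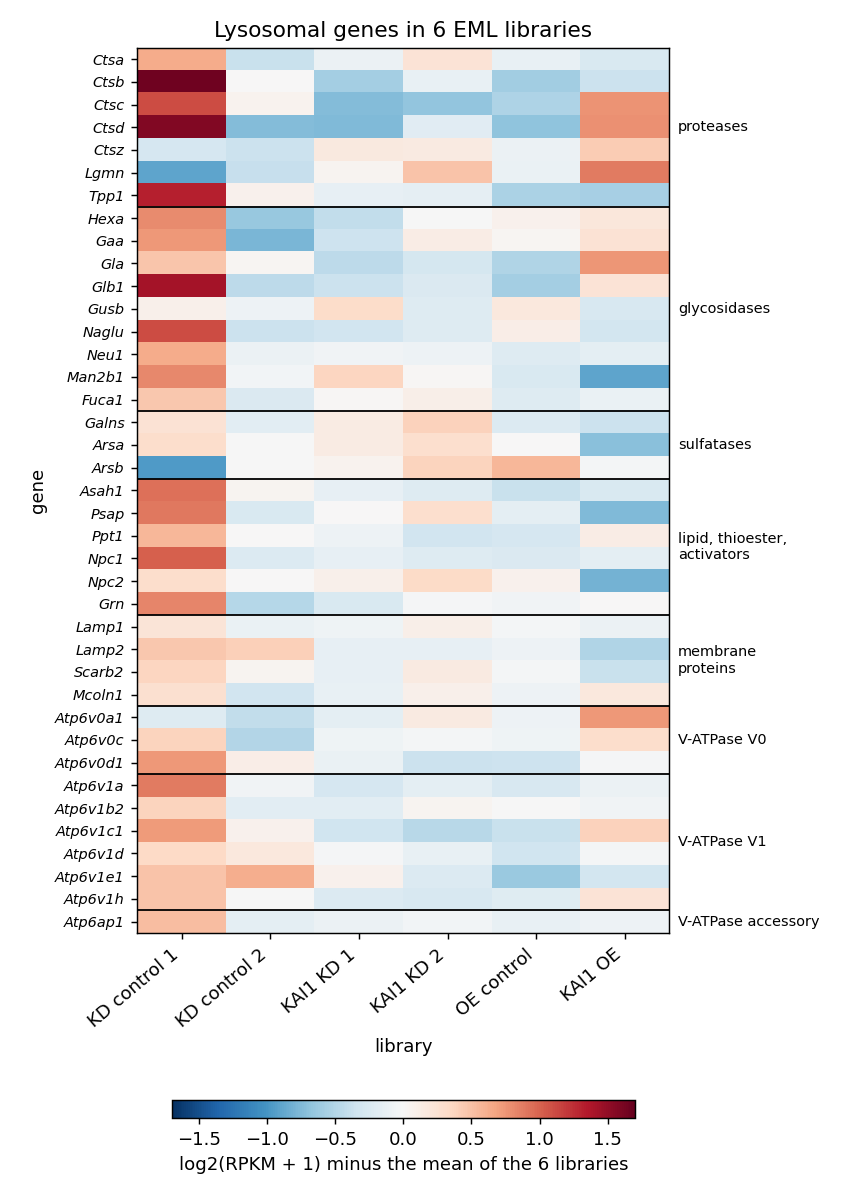
Heat map of the 39 lysosomal genes that averaged 1 RPKM or more (rows, ordered by role) in each library (columns). Colour is log2(RPKM + 1) minus the gene's mean over the 6 libraries, KD is knockdown and OE overexpression, and knockdown control 1 is the highest library for 30 of the 39 genes.

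Knockdown control replicate 1 also held the highest lysosomal levels. It was the highest of the 6 libraries for 30 of 39 members (76.9%), against 29.9% of the 10112 entries that averaged 1 RPKM or more, while the KAI1 overexpression was highest for 4 members and the other 4 libraries together for 5. The summed level of the 42 genes was 3214 RPKM in control replicate 1, between 1538 and 1747 RPKM in control replicate 2, both knockdown libraries and the overexpression control, and 2051 RPKM in the overexpression. On the RPKM + 1 scale, 12 of 39 members were at least 2-fold higher in control replicate 1 than in replicate 2, against 12.7% of entries, and 0 were at least 2-fold lower, against 8.5%. The median member difference between the 2 controls was 0.66 on the log2(RPKM + 1) scale, and 0.01 over all entries. The 2 libraries with the highest lysosomal sums, control replicate 1 and the overexpression, also had the highest mast cell marker sums. Without Ctsd, left out after the values were seen, the other 41 members summed to 2247 RPKM in control replicate 1, 1495.3 in the overexpression and 1337 to 1462 elsewhere, so that the place of the overexpression rested mostly on Ctsd. The part of those markers in the lysosomal values was not tested. Among the 5 other libraries, an order counted after the data were seen, 15 of 39 members were highest in the KAI1 overexpression, against 24.1% of entries, and 2 in the overexpression control, against 15.4%.

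Among the 39 measured members, the spread between the 2 controls was widest in soluble hydrolases. Ctsd (deposited locus chr7:149561821-149573775, mm9) was at 967 RPKM in control replicate 1 and 194 in replicate 2, a 4.95-fold difference on the RPKM + 1 scale. Glb1 differed 3.64-fold, Ctsb, cathepsin B, 3.12-fold, and Gaa, the acid glucosidase that digests glycogen, 2.85-fold. None of the 10 V-ATPase members differed 2-fold, where 12.7% of entries were at least 2-fold higher in replicate 1 and 8.5% lower. With 10 genes, 0 is near those shares. Of 9 other V-ATPase genes 3 were at least 2-fold higher (33.3%). The 3 included Atp6v0d2, which differed 10.5-fold and averaged 1 RPKM only through replicate 1. The 10 members had a median difference of 0.59 (log2), against 0.73 for the 29 other members. Some members barely differed between the controls. Lamp2 was at 35.0 and 33.5 RPKM, Ctsz, cathepsin Z, at 21.9 and 20.7, and Atp6v1e1 was lower in replicate 1, at 128 against 139 RPKM. The 3 genes lowest in control replicate 1 and higher in the other libraries were among the least expressed: Lgmn, Arsb and Ctsl, which was listed at 0 there.

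In the KAI1 knockdown no lysosomal gene passed the test, and more members than entries at large lay below both controls. By limma with Benjamini-Hochberg adjustment over 10113 entries, 0 of 37 members and 3 of all entries (0.0297%) were called, and the members' adjusted p ran from 0.83 to 0.998. At an unadjusted p under 0.05, 1 member was lower, Ctsc, and 0 were higher, where the shares over all entries were 1.51% and 1.81%. For 13 of 37 members (35.1%), against 17.0% of entries, each knockdown value was below each control value, and for 2 (5.41%) above, against 21.5%. With group means also at least 1.5-fold apart on the RPKM + 1 scale, 9 members were lower (24.3%, against 6.69% of entries) and 0 higher (against 6.02%). The median difference between knockdown and control was -0.31 for the members and 0.03 for all entries (log2). Fewer cells rich in lysosomes and less lysosomal RNA per cell cannot be told apart in such bulk samples. The sum of the mast cell markers was also lower in the knockdown than in either control. Of the 16 markers 11 lay below both controls (68.8%, against 17.0% of entries). The part of these markers in the lysosomal values was not tested.

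**Figure D2:**
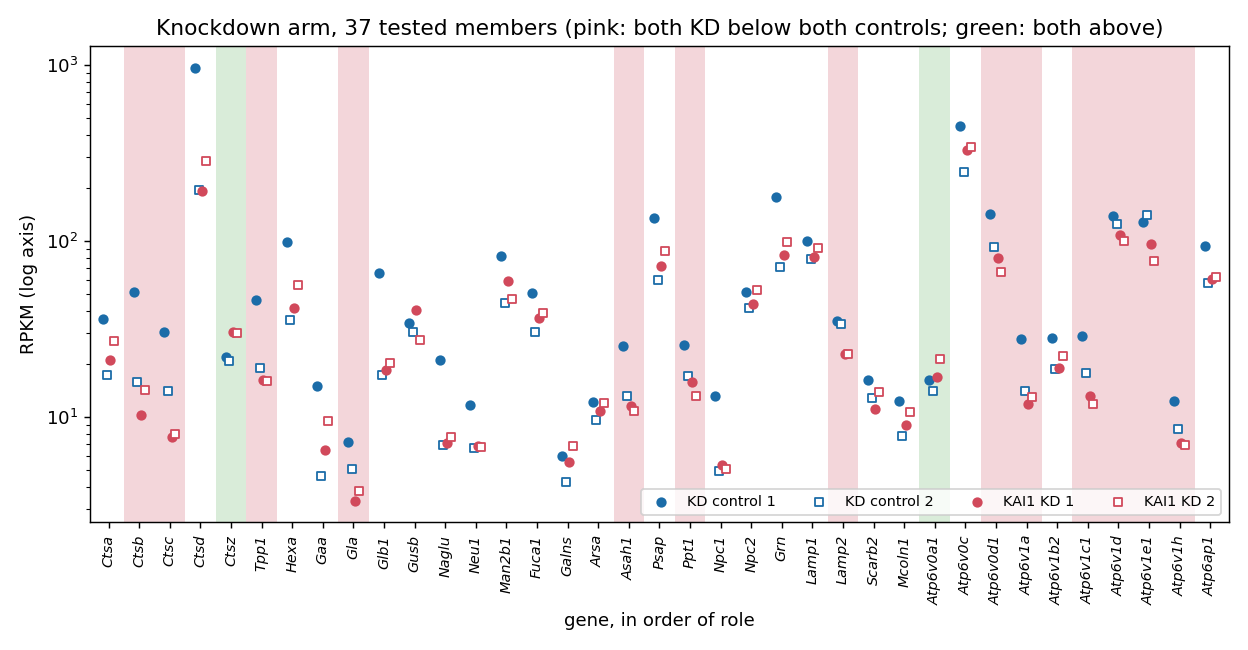
RPKM (log axis) of the 37 tested lysosomal genes in the 4 libraries of the knockdown arm, 1 point a library; filled circles are replicate 1 and open squares replicate 2, blue for the knockdown control and red for the KAI1 knockdown. Shading marks 13 genes with both knockdown points below both controls (pink) and 2 with both above (green).

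Among the proteases, 3 of 6 tested members lay below both controls. Ctsc (chr7:95426603-95459385, mm9), cathepsin C, which trims and so activates granule serine proteases, was at 30.2 and 14.1 RPKM in the controls, 7.67 and 8.03 in the knockdown, 9.03 in the overexpression control and 23.4 with KAI1 overexpression. The knockdown libraries lay close together below both controls, with a difference of -1.29 (log2, SE 0.41, limma adjusted p = 0.83) that was -0.77 without control replicate 1. The wild-type overexpression control lay near the knockdown libraries rather than near the knockdown controls. Ctsb was at 51.4 and 15.8 RPKM in the controls, 10.2 and 14.3 in the knockdown, 10.1 in the overexpression control and 12.0 with KAI1 overexpression. Its difference of -1.18 (SE 0.61, limma adjusted p = 0.83) came down to -0.36 without control replicate 1. Tpp1, the tripeptidyl peptidase, was at 46.4 and 18.8 RPKM in the controls, 16.1 and 16.02 in the knockdown, 12.0 in the overexpression control and 11.8 with KAI1 overexpression, a difference of -0.84 (SE 0.48, limma adjusted p = 0.83) and of -0.21 without control replicate 1. For Tpp1 the 5 libraries other than control replicate 1 lay within 11.8 to 18.8 RPKM.

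Ctsd overlapped between the groups, since the knockdown values of 193 and 285 RPKM straddled the 194 RPKM of control replicate 2. Its difference was -0.89 (SE 0.84, limma adjusted p = 0.84), and 0.27 without control replicate 1. Ctsz was the only protease above both controls, at 30.3 and 30.1 RPKM in the knockdown against 21.9 and 20.7, with 25.0 in the overexpression control and 36.6 with KAI1 overexpression. Its difference was 0.48 (SE 0.22), a size also seen without control replicate 1 (0.52). Ctsa, the carboxypeptidase that also protects beta-galactosidase and neuraminidase, overlapped, with a difference of -0.06.

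Of 9 glycosidases, 1 lay below both controls (11.1%, against 17.0% of entries). This was Gla (chrX:131122708-131135544, mm9), alpha-galactosidase A. It was at 7.15 and 5.05 RPKM in the controls, 3.34 and 3.80 in the knockdown, 3.13 in the overexpression control and 8.92 with KAI1 overexpression. Its difference was -0.62 (SE 0.26, limma adjusted p = 0.83), and -0.41 without control replicate 1. Hexa, the alpha subunit of beta-hexosaminidase, an enzyme much used to measure mast cell degranulation, was the most expressed of the class. It was at 98.8 and 35.6 RPKM in the controls, 41.8 and 56.2 in the knockdown, 59.5 in the overexpression control and 64.6 with KAI1 overexpression, so that the knockdown values fell between the 2 controls (-0.29, SE 0.56, limma adjusted p = 0.91). The same order, with both knockdown libraries between a high control replicate 1 and a low replicate 2, held for Gaa, Glb1, Naglu, Neu1, Man2b1 and Fuca1. Those genes encode enzymes that take glucose, galactose, N-acetylglucosamine, sialic acid, mannose and fucose off glycans. Gusb, beta-glucuronidase, had the narrowest spread of the class, 26.6 to 40.2 RPKM over the 6 libraries. The 2 tested sulfatases overlapped. Arsa, arylsulfatase A, was at 12.1 and 9.61 RPKM in the controls, 10.7 and 12.0 in the knockdown, 9.74 in the overexpression control and 5.56 with KAI1 overexpression (knockdown difference 0.07, SE 0.24, limma adjusted p = 0.95).

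Of 6 lipid enzymes and activators, 2 lay below both controls (33.3%, against 17.0% of entries). Asah1, acid ceramidase, was at 25.3 and 13.2 RPKM in the controls, 11.5 and 10.8 in the knockdown, 9.53 in the overexpression control and 10.4 with KAI1 overexpression. Its difference was -0.67 (SE 0.37, limma adjusted p = 0.83), and -0.23 without control replicate 1. Ppt1, which removes palmitate from proteins, was the other, with a smaller difference of -0.50. Grn, the most expressed, was at 178 and 71.2 RPKM in the controls, 83.4 and 98.1 in the knockdown, 96.1 in the overexpression control and 100.02 with KAI1 overexpression. Its knockdown values fell between the controls (-0.31, SE 0.51, limma adjusted p = 0.89), as did those of Psap, the precursor of the saposins, and of the cholesterol exporter Npc1.

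Of 4 membrane proteins, 1 lay below both controls (25.0%, against 17.0% of entries), and their median difference was -0.12 (log2). Lamp1 was at 99.7 and 78.8 RPKM in the controls, 81.4 and 91.2 in the knockdown, 83.1 in the overexpression control and 79.9 with KAI1 overexpression, and its highest library was 1.26-fold above its lowest on the RPKM + 1 scale (knockdown difference -0.04, SE 0.26, limma adjusted p = 0.98). Lamp2 (chrX:35758241-35809632, mm9), whose product also serves chaperone-mediated autophagy, was at 35.0 and 33.5 RPKM in the controls, 22.8 and 22.8 in the knockdown, 23.7 in the overexpression control and 17.3 with KAI1 overexpression. The difference of -0.57 (SE 0.22, unadjusted p = 0.0543, limma adjusted p = 0.83) was much the same without either control, at -0.54 and -0.60. The wild-type control of the overexpression arm lay with the knockdown libraries, and not with the other wild-type libraries. Scarb2, the receptor that brings glucocerebrosidase to lysosomes, and the calcium channel gene Mcoln1 overlapped between the groups.

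Of 10 V-ATPase members, 6 lay below both controls (60.0%, against 17.0% of entries) and 1 above (against 21.5%). Their median difference was -0.42 (log2), and -0.21 without control replicate 1. Of the 6 V1 genes 5 lay below both controls (83.3%, against 17.0% of entries). The median over the sector was -0.56, and -0.25 without control replicate 1. Atp6v1c1 (chr15:38591659-38622199, mm9), for a stalk subunit that takes part in joining V1 to V0, was at 28.6 and 17.8 RPKM in the controls, 13.2 and 11.9 in the knockdown, 12.8 in the overexpression control and 22.3 with KAI1 overexpression. Its difference was -0.80 (SE 0.31, unadjusted p = 0.0555, limma adjusted p = 0.83), and -0.47 without control replicate 1. Atp6v1e1 was at 128 and 139 RPKM in the controls, 95.98 and 77.1 in the knockdown, 58.1 in the overexpression control and 72.8 with KAI1 overexpression. It was the only V-ATPase member whose highest library was control replicate 2, and its difference of -0.63 (SE 0.26, limma adjusted p = 0.83) was -0.69 without control replicate 1.

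Atp6v1a, the ATP-splitting A subunit, was at 27.6 and 14.0 RPKM in the controls, 11.8 and 12.9 in the knockdown, 11.9 in the overexpression control and 13.5 with KAI1 overexpression. The difference of -0.64 (SE 0.38, limma adjusted p = 0.83) was -0.17 without control replicate 1. Its partner Atp6v1b2 overlapped between the groups, while Atp6v1h, for a regulatory subunit, had 12.4 and 8.54 RPKM in the controls against 7.12 and 6.92. Atp6v1d, the most expressed V1 gene, was at 139 and 124 RPKM in the controls, 108 and 99.8 in the knockdown, 86.6 in the overexpression control and 107 with KAI1 overexpression (-0.34, SE 0.24, limma adjusted p = 0.83).

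The 3 V0 genes gave 3 different orders. Atp6v0d1, which joins the ring to the stalk, was at 143 and 92.7 RPKM in the controls, 79.4 and 66.1 in the knockdown, 67.0 in the overexpression control and 84.4 with KAI1 overexpression (-0.66, SE 0.33, limma adjusted p = 0.83), a difference that was -0.35 without control replicate 1. Atp6v0c was at 452 and 247 RPKM in the controls, 330 and 341 in the knockdown, 333 in the overexpression control and 428 with KAI1 overexpression, so that the knockdown lay between the controls (0.01, SE 0.39, limma adjusted p = 0.998). Atp6v0a1, an isoform of the proton channel subunit, was at 16.2 and 14.0 RPKM in the controls, 16.9 and 21.2 in the knockdown, 17.8 in the overexpression control and 32.3 with KAI1 overexpression. It was the V-ATPase member above both controls, with a difference of 0.31 (SE 0.25). Atp6ap1, for an accessory subunit, was at 93.0 and 57.5 RPKM in the controls, 60.4 and 62.3 in the knockdown, 58.8 in the overexpression control and 60.9 with KAI1 overexpression. Its difference was -0.25 (SE 0.33, limma adjusted p = 0.87), and 0.09 without control replicate 1.

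The knockdown counts rested on which control was used. Without control replicate 1, 21 of 37 members lay above control replicate 2 and 13 below it, the median difference was 0.12 against 0.03 for all entries, and 0 members were called (0.158% of all entries were). Without control replicate 2, 32 members lay below control replicate 1 and 2 above, the median was -0.70, and 10 members were called, all lower, where 6.29% of all entries were called lower and 10.3% in either direction. The 10 were Ctsb, Ctsc, Ctsd, Tpp1, Glb1, Naglu, Asah1, Npc1, Atp6v1a and Atp6v1c1. Over all entries the median without control replicate 2 was 0.03. Both knockdown libraries lie on 1 side of a single control more often than of 2 controls. The shares of all entries above or below 1 control were not counted, so these counts have nothing to be set against. With 1 control left, that library is assumed to vary like the knockdown libraries.

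**Figure D3:**
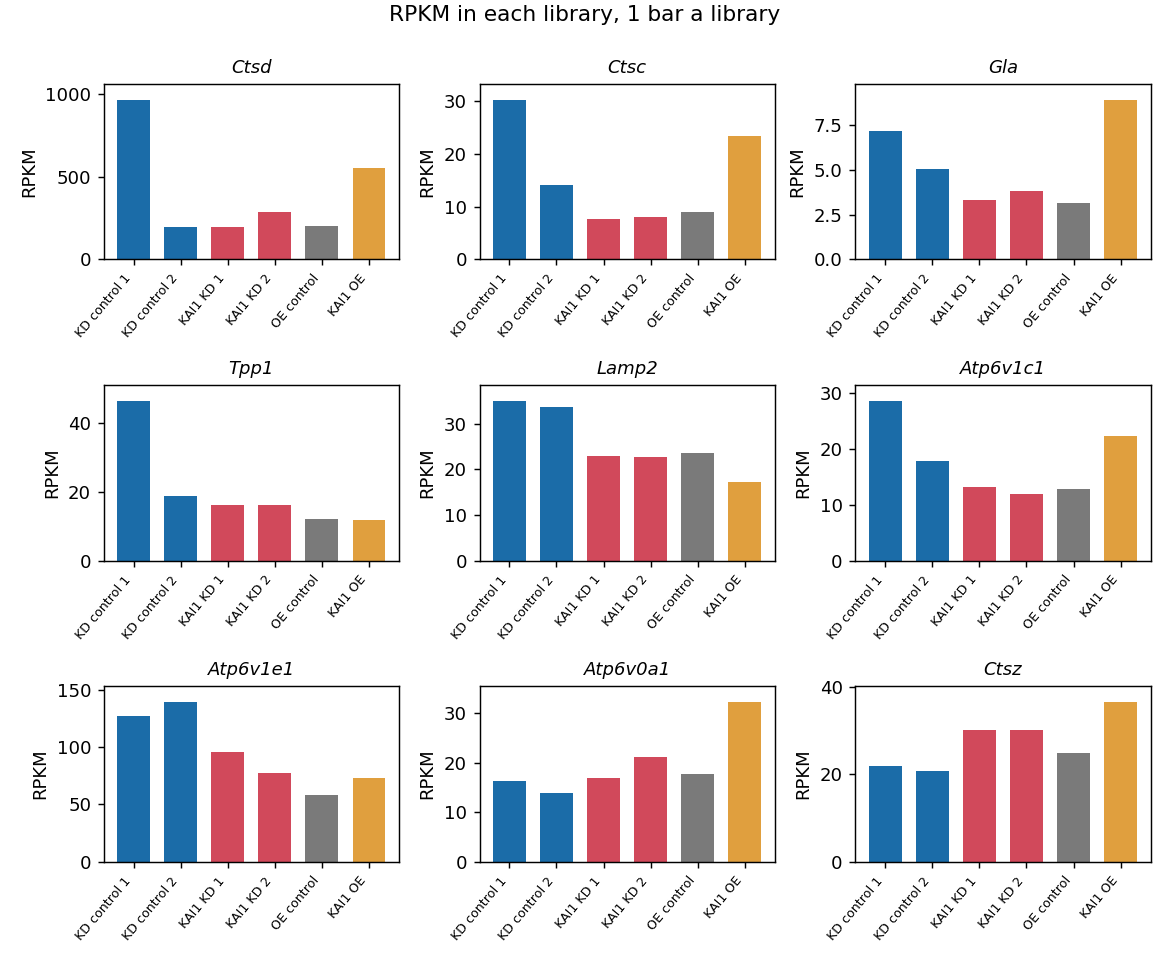
RPKM of 9 lysosomal genes in the 6 libraries, 1 bar a library, with no error bar since each bar is 1 value; blue is the knockdown control, red the KAI1 knockdown, grey the overexpression control and orange the KAI1 overexpression. Ctsd reaches 967 RPKM in knockdown control 1 and 556 in the overexpression, while Lamp2 and Atp6v1e1 are high in both knockdown controls.

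In the overexpression arm, with 1 library against 1 and so no test, 3 of 39 measured members (7.69%) were at least 2-fold higher in the KAI1 overexpression on the RPKM + 1 scale, against 4.92% of 9936 entries, and 0 were at least 2-fold lower, against 5.21%. The 3 were Ctsd (202 and 556 RPKM, 2.75-fold), Ctsc (9.03 and 23.4 RPKM, 2.43-fold) and Gla (3.13 and 8.92 RPKM, 2.40-fold). Just under that size lay Lgmn, at 0.834 and 2.63 RPKM, the lowest level among the 39 but for Arsb. By any amount, 25 of 39 members were higher (64.1%), against 50.6% of entries, with a median of 0.12 (log2) against 0.01. The V-ATPase accounted for much of that count: 9 of its 10 members were higher, with a median of 0.32, led by Atp6v0a1 (0.83) and Atp6v1c1 (0.76). The mast cell markers were also higher in the overexpression library, 15 of 15 measured, and their part in the lysosomal values was not tested.

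Other members were lower in the overexpression library. Npc2, the soluble partner of Npc1 in cholesterol export, was at 23.3 RPKM against 43.5 in its control, and below the 41.7 to 52.3 RPKM of the 4 libraries of the knockdown arm. Arsa was 1.64-fold lower, Man2b1 1.56-fold and Psap 1.498-fold, and all 3 sulfatases were lower. For Npc2, Arsa, Man2b1, Psap and Lamp2 the overexpression was the lowest of the 6 libraries. Glycosidases split, with 6 higher and 3 lower, and the sum over the 9 was 209 RPKM in the control and 210.1 in the overexpression.

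**Figure D4:**
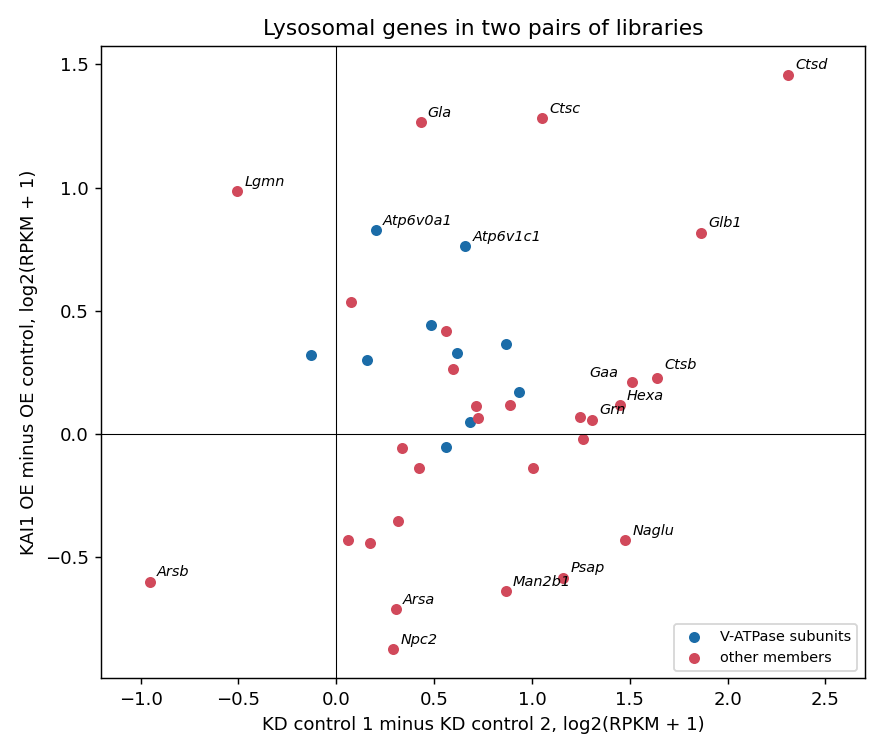
Each point is 1 of 39 lysosomal genes. The x axis is the difference between knockdown control replicates 1 and 2 and the y axis that between KAI1 overexpression and its control, both in log2(RPKM + 1), with 1 library on each side. The upper right holds 23 genes, led by Ctsd, and the lower right 13, among them Npc2, Arsa and Psap.

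Control replicates 1 and 2 and the overexpression pair share no library, and within each pair the mast cell markers differed. Of the 39 members, 23 were higher in both control replicate 1 and the overexpression, 13 were higher in control replicate 1 and lower in the overexpression, 2 the other way round and 1 lower in both. Ctsd, Ctsc and Glb1 were higher in both pairs. Naglu, Psap and Man2b1 were higher in control replicate 1 but lower in the overexpression, and Ctsb, Tpp1, Hexa, Grn and Npc1, each more than 2-fold higher in control replicate 1 than in replicate 2, were from 0.985-fold to 1.17-fold of the control in the overexpression pair. Members with the CACGTG core in their window (12 measured) had a median of 0.78 (log2) between the controls and 0.24 in the overexpression pair, with ranges of -0.51 to 2.31 and -0.71 to 1.46. The 20 measured without it had medians of 0.62 and 0.06, and the ranges of both sets overlapped widely. The knockdown difference, which uses the same controls, had a median of -0.62 with the core (11 tested) and -0.25 without it (19 tested).

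Other genes of the pathway, taken from lists by function, were compared in the same way, and limma called 0 of them. Of 27 further lysosomal genes tested, 5 lay below both knockdown controls (18.5%, close to the 17.0% of all entries) and 2 above (7.41%, against 21.5%). Their median was -0.42, and 0.09 without control replicate 1, and 21 of 27 were highest in that library (77.8%, against 29.9% of entries). Ids, the iduronate sulfatase of glycosaminoglycan breakdown, was at 25.1 RPKM in control replicate 1, between 1.08 and 1.94 in control replicate 2, the knockdown and the overexpression control, and at 4.32 in the overexpression. Acp5, the tartrate-resistant acid phosphatase, went the other way, at 0.253 and 26.4 RPKM in the controls, 14.996 and 25.0 in the knockdown, 9.38 in the overexpression control and 0.452 with KAI1 overexpression. Ctse, cathepsin E, was lower in the overexpression, at 7.45 RPKM against 17.7, and so was the channel gene Mcoln2, at 2.26 against 5.73. The lipid enzymes Lipa and Pla2g15 lay below both knockdown controls, with differences of -0.64 and -0.58. Among 9 other V-ATPase genes tested, 4 lay below both controls (44.4%, against 17.0% of entries) and 1 above (11.1%, against 21.5%). Their median difference was -0.33 (log2), and 0.003 without control replicate 1. The 4 included Atp6v0d2, which averaged 1 RPKM over the knockdown arm only through control replicate 1, so that the filter itself favoured its place below. Atp6v0d2, an isoform of V0 subunit d, was at 10.5 RPKM in control replicate 1 and at most 0.0945 elsewhere, and Tcirg1, an isoform of subunit a, was lowest in control replicate 1 (0.346 RPKM).

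Of 8 genes that tag lysosomal enzymes with mannose 6-phosphate and sort them, 3 were highest in control replicate 1 (37.5%, against 29.9% of entries), and their median difference between the 2 controls was 0.51. In the knockdown 0 of the 8 lay below both controls (against 17.0% of entries) and 1 above (12.5%, against 21.5%). Of 22 genes for the building of lysosome-related organelles, 8 lay below both controls (36.4%, against 17.0% of entries) and 3 above (13.6%, against 21.5%). Their median difference was only -0.062 (log2), and -0.055 without control replicate 1. The 8 included Lyst and Rab32, which averaged 1 RPKM over the knockdown arm only through control replicate 1, so that the filter itself favoured their place below. In the overexpression 3 of the 22 were at least 2-fold higher (13.6%, against 4.92%). Lyst and Rab32 were among these 3 and averaged 1 RPKM over the pair only through the overexpression library. Ap3m1, for a subunit of the AP-3 sorting complex, had 19.3 and 13.7 RPKM in the controls and 8.77 and 8.92 in the knockdown, and Hps3, of a complex mutated in Hermansky-Pudlak syndrome, at 5.26 and 2.83 against 2.21 and 2.08. Rab27b, a small GTPase of granule docking, was at 26.3 and 8.37 RPKM in the controls, 4.65 and 7.05 in the knockdown, 3.15 in the overexpression control and 22.2 with KAI1 overexpression. Lyst, the gene mutated in beige mice with giant granules, was at 3.76 RPKM in control replicate 1, 2.17 in the overexpression and at most 0.145 elsewhere, and Rab32 had the same 2 libraries on top, at 8.53 and 2.37 RPKM. Vamp8, a SNARE of granule fusion, was instead lowest in control replicate 1, at 642 RPKM, and at 1164 to 1537 in the other 5.

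Among 13 regulators, Mitf was at 13.6 and 3.92 RPKM in the controls, 3.22 and 4.61 in the knockdown, 2.61 in the overexpression control and 9.38 with KAI1 overexpression. The 2 highest libraries for Mitf were thus those highest in the mast cell marker sum. Tfe3 lay within 8.45 to 11.2 RPKM in all 6 libraries, and Tfeb within 3.43 to 10.1, highest in the overexpression control. Of the 13 regulators, 3 lay below both controls (23.1%, against 17.0% of entries) and 2 above (15.4%, against 21.5%). The median difference of the 13 was -0.16 (log2), and 0.09 without control replicate 1. Rragc and Lamtor3, which hold the mTORC1 kinase at the lysosome, were among the 3 below, Lamtor3 at 104 and 76.3 RPKM against 56.2 and 46.5. Of 16 autophagy genes, 4 lay below both controls (25.0%, against 17.0% of entries), among them Uvrag, and 2 above (12.5%, against 21.5%). The median difference of the 16 was -0.28 (log2), and 0.006 without control replicate 1. Gabarap, which marks autophagosome membranes, was at 306 and 259 RPKM in the controls, 173 and 158 in the knockdown, 130 in the overexpression control and 174 with KAI1 overexpression. Gabarapl2, of the same family, had 44.96 and 44.7 RPKM in the controls and 29.5 and 29.3 in the knockdown. Sqstm1, the autophagy cargo receptor p62, was at 450 RPKM in control replicate 1, 649 in the overexpression and between 137 and 145 in the other 4. Of 6 inhibitors of lysosomal and granule proteases, 3 lay below both controls, Serpinb1a, Cstb and Cst7. Serpinb1a, an inhibitor of neutrophil-type serine proteases, was at 2430 and 407 RPKM in the controls, 213 and 269 in the knockdown, 189 in the overexpression control and 684 with KAI1 overexpression. Cstb, an inhibitor of cysteine cathepsins, was 2.005-fold higher in the overexpression than in its control. Serpinb6b went the other way in both library pairs, at 3.55 and 12.8 RPKM in the controls, 6.23 and 7.16 in the knockdown, 4.83 in the overexpression control and 0.599 with KAI1 overexpression.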

How the data were processed

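The files deposited by the authors hold 1 table a library, with RPKM for each RefSeq transcript, per the file headers. TopHat2 2.0.9, Bowtie and Cufflinks and the build mm9 stand in the submitters' processing notes, without settings or further versions. Strandedness and poly(A) selection are not given in the sources used here. Of 23170 rows in each table, 24 repeated an accession and locus and were dropped. RefSeq and GENCODE tables of GRCm38 gave symbols to 22840 and 125 entries, and 181 stayed without one; their coordinates were used only for promoter windows. Depth was estimated from the steps in low RPKM values, a procedure tested on simulated data (15 of 15 library pairs recovered).

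The planned test allowed for FPKM or RPKM, and the headers give RPKM. For the knockdown, limma 3.58.1 (R 4.3.3, mean-variance trend, two-sided) was run on log2(RPKM + 1) over the 10113 entries that averaged 1 RPKM or more in the knockdown arm, with a Benjamini-Hochberg threshold of 0.05. This scale understates the change of low genes. The overexpression pair had no test, and at least 2-fold on RPKM + 1 was the size counted, over the 9936 entries averaging 1 RPKM or more. The members and lists were chosen with earlier results of these data known. Given in full were, by rule, the member with the highest mean of each role class, those with knockdown groups apart and means at least 1.5-fold apart, and those at least 2-fold apart in the overexpression pair. Of the related lists, those past either size were named, up to 6 a list, with Tfeb, Tfe3 and Mitf. Genes outside this rule were chosen after their values were seen. Alternatives covered the pseudocount, the filter, scaling, the trend, the replicate block, summed entries and each library left out.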

Additional observations from a re-analysis of the deposited data

How the results depend on the processing

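Over all entries, limma called 3 with the settings reported, 5 with a pseudocount of 0.1, 0 with no filter on low values (683 of 15105 at an unadjusted p under 0.05), and from 0 to 1045 when 1 library was left out. The count of members called stayed at 0 except without knockdown control replicate 2, and ran from 0 to 10. Leaving out 1 library moved the members' median difference from -0.70 to 0.12, reversed only without knockdown control replicate 1. The count above every control kept ran from 2 to 21, and the count below from 13 to 32. The 21 was counted without control replicate 1 and the 32 without replicate 2, so each against a single control. The shares of all entries for these counts were not taken. With no filter, 4 members lay above both controls, among them Lgmn and Arsb, which did not average 1 RPKM over the knockdown arm. The share of all entries with no filter was not counted. Across the libraries left out, the difference ranged from -2.04 to 0.27 for Ctsd, -1.01 to 0.44 for Hexa, -0.087 to 0.219 for Arsa, -0.97 to 0.34 for Grn, -0.21 to 0.13 for Lamp1, -0.43 to 0.44 for Atp6v0c and -0.592 to 0.092 for Atp6ap1. Atp6v0c was at -0.022 with quantile normalization. Of 220 alternatives over the 17 genes given in full, 202 kept direction and side of the threshold, 11 reversed and 7 passed it, all 7 without knockdown control replicate 2. The causes were not tested.

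With the replicate number as a block, 4 entries and 0 members were called and the median was -0.31. Same-numbered libraries did not deviate together over the entries tested (correlation -0.08). Since knockdown control replicate 1 stood apart from the other libraries, this value cannot show whether same-numbered libraries share a batch.

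In the overexpression pair the median stayed within 0.106 to 0.118 and 3 or 4 members were at least 2-fold higher. Knockdown control replicate 1 was the highest library for 27 to 30 members.

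The knockdown arm has 2 libraries a group and the overexpression arm 1, and 1 control decides most knockdown counts. Ctsh and Ctsl rest on an estimated 20 reads or fewer in each library.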
